A study of Homo sapiens with 2 samples.

Results

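The genes described here encode PML nuclear body proteins and tripartite motif (TRIM) proteins: SP100, SP110, SP140L, PML, TRIM5, TRIM14, TRIM21, TRIM22, TRIM25 and TRIM69. They were chosen by symbol, with earlier results of these data known, and all 10 were found among the 36601 genes of the deposited table. The cells were OVCAR5, an established ovarian carcinoma line with the genotype IFNy-sensing reporter, CFP+, and 1 pool of them was sequenced by droplet 3′ single-cell RNA-seq together with antibody tags (hashtags) that mark cells. Per the labels, the pool combined 18 conditions. Cells received IFNy at 1, 10 or 100 ng/ml, or were left unstimulated, for 2, 6, 12 or 24 h, and frozen cells of the 24 h conditions with 100 ng/ml and without stimulation were added.

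Which hashtags mark which condition is not stated in the labels or headers, so no pair of hashtags is given a dose or a time, and no test between conditions was made. Each cell was assigned to the pair formed by its 2 most abundant hashtags, and only pairs with at least 100 cells were kept. Of the 7201 cells that passed the filter, 6114 had such a pair. They fell into 18 of 28 possible pairs, with 166 to 493 cells and 5392185 to 16184801 UMIs (unique transcript molecules) per pair. The median cell of these pairs held 30005.5 UMIs. Pairs are parts of 1 pool and not replicates, so each interval is an exact 95% interval that covers counting error only. The epithelial markers KRT8, KRT18, KRT7, KRT19 and EPCAM were abundant, with KRT18 seen in 99.9% of cells, while CDH1 held 220 UMIs in all. Of the ovarian carcinoma markers, PAX8 had 667 UMIs, and WT1, MUC16 and MSLN had 10, 23 and 31. Of the markers of other cell types, 1 in each list had 0 UMIs in the paired cells: CD3E of 4 T cell, TYROBP of 4 myeloid, COL1A2 of 3 fibroblast and CDH5 of 3 endothelial markers. CD68 and CD14 of the myeloid list were present, with 5408 and 887 UMIs, and the summed myeloid list held 28.1 to 43.2 UMIs per 1000000 over the pairs. The next highest were COL1A1 with 128, LYZ with 84, CD8A with 53 and PECAM1 with 45 UMIs; their part in the results was not tested.

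PML nuclear bodies are dots of protein in the nucleus, built on PML and filled with partners such as SP100 that are held by the small modifier SUMO; they repress the genomes of many DNA viruses. The SP proteins form a family of chromatin readers encoded side by side on chromosome 2. Most TRIM proteins are ubiquitin ligases. PML itself belongs to the TRIM family, and several other members sense or block viruses in the cytoplasm. Interferons act on many of these genes through short promoter motifs, the gamma-activated site and the interferon-stimulated response element; response elements are bound by factors of the IRF family such as IRF1.

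Promoter windows, from 250 bases before to 50 after a transcript start, were available from RefSeq (GRCh38.p14) for 8 of the 10 genes, as 10 windows; PML and TRIM22 had none in the table. The core of the interferon-stimulated response element, GAAANNGAAA on either strand, lay in the windows of TRIM5, TRIM14, TRIM21 and TRIM69. Of all 35116 windows in the table, 3.57% held it. The stretches around these matches are shown because the 4 genes share the motif but not a level pattern. Capitals mark the matches, of which TRIM21 has 2 that overlap, and positions are chr11:5685057-5685136 (minus strand) for TRIM5, chr9:98119204-98119283 (minus) for TRIM14, chr11:4393653-4393732 (minus) for TRIM21 and chr15:44736431-44736510 (plus) for TRIM69.
TRIM5: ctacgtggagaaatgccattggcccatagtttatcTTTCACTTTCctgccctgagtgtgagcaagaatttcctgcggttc
TRIM14: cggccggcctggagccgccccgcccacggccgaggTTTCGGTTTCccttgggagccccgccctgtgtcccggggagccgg
TRIM21: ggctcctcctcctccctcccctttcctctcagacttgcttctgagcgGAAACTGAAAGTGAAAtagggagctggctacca
TRIM69: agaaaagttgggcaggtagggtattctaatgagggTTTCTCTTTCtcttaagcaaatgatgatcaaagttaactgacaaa

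The SP windows held no such core in this exact spelling. They shared a related run of 16 letters, GAAAAGANAAGTGAAA on either strand, which was picked out after the windows had been compared. It occurred in 4 SP windows (1 of SP100, 2 of SP110 and 1 of SP140L) and in 5 of all 35116 windows (0.0142%); the other one belongs to SP140 and overlaps an SP110 window by 199 bases. The stretches, with the run in capitals, lie at chr2:230416105-230416184 (plus strand) for SP100, chr2:230219988-230220067 (minus) and chr2:230225694-230225773 (minus) for SP110, and chr2:230327074-230327153 (plus) for SP140L.
SP100: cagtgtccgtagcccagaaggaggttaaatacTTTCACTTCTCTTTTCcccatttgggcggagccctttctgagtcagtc
SP110, lower coordinate: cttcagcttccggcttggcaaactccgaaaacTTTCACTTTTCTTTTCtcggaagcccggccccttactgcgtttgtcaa
SP110, higher coordinate: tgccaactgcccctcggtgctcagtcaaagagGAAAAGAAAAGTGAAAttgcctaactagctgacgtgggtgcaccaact
SP140L: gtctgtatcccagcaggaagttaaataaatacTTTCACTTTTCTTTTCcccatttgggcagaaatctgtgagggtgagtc
This SP100 window and the SP140L window matched at 250 of 270 aligned bases (92.6%); the other SP100 window aligned with it over 72 bases, of which 59 were identical. A gamma-activated site, TTCNNNGAA, was found in 1 SP110 window, where it overlaps the last 3 capitals of the lower-coordinate stretch, and in 7.66% of all windows. The TRIM25 window held neither motif. A match describes the letters of these windows and says nothing about binding.

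All 10 genes differed between hashtag pairs, and the size of the difference ran from 2.04-fold for TRIM25 to 57.2-fold for TRIM22. The span of a gene is its level in the highest pair over that in the lowest, with levels given as CPM, the UMIs of the gene per 1000000 UMIs of the pair. These are tag counts, so levels are compared between pairs and not between genes. Among the 10 genes, 6 spanned at least 4-fold (TRIM22, TRIM69, SP110, PML, TRIM21 and SP100), beside 3.45% of the 7566 genes with at least 2000 UMIs, a number that all 10 genes reached. The median span was 4.46-fold for the 10 genes and 1.53-fold for those 7566. A span takes the extremes of 18 values and is above 1 by construction. The 10 genes were chosen with earlier results of these data known, which the 3.45% does not take into account. The values just beside the 4-fold line were SP100 at 4.01-fold (3.71 to 4.33) and SP140L at 3.55-fold (3.14 to 4.04).

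**Figure D1:**
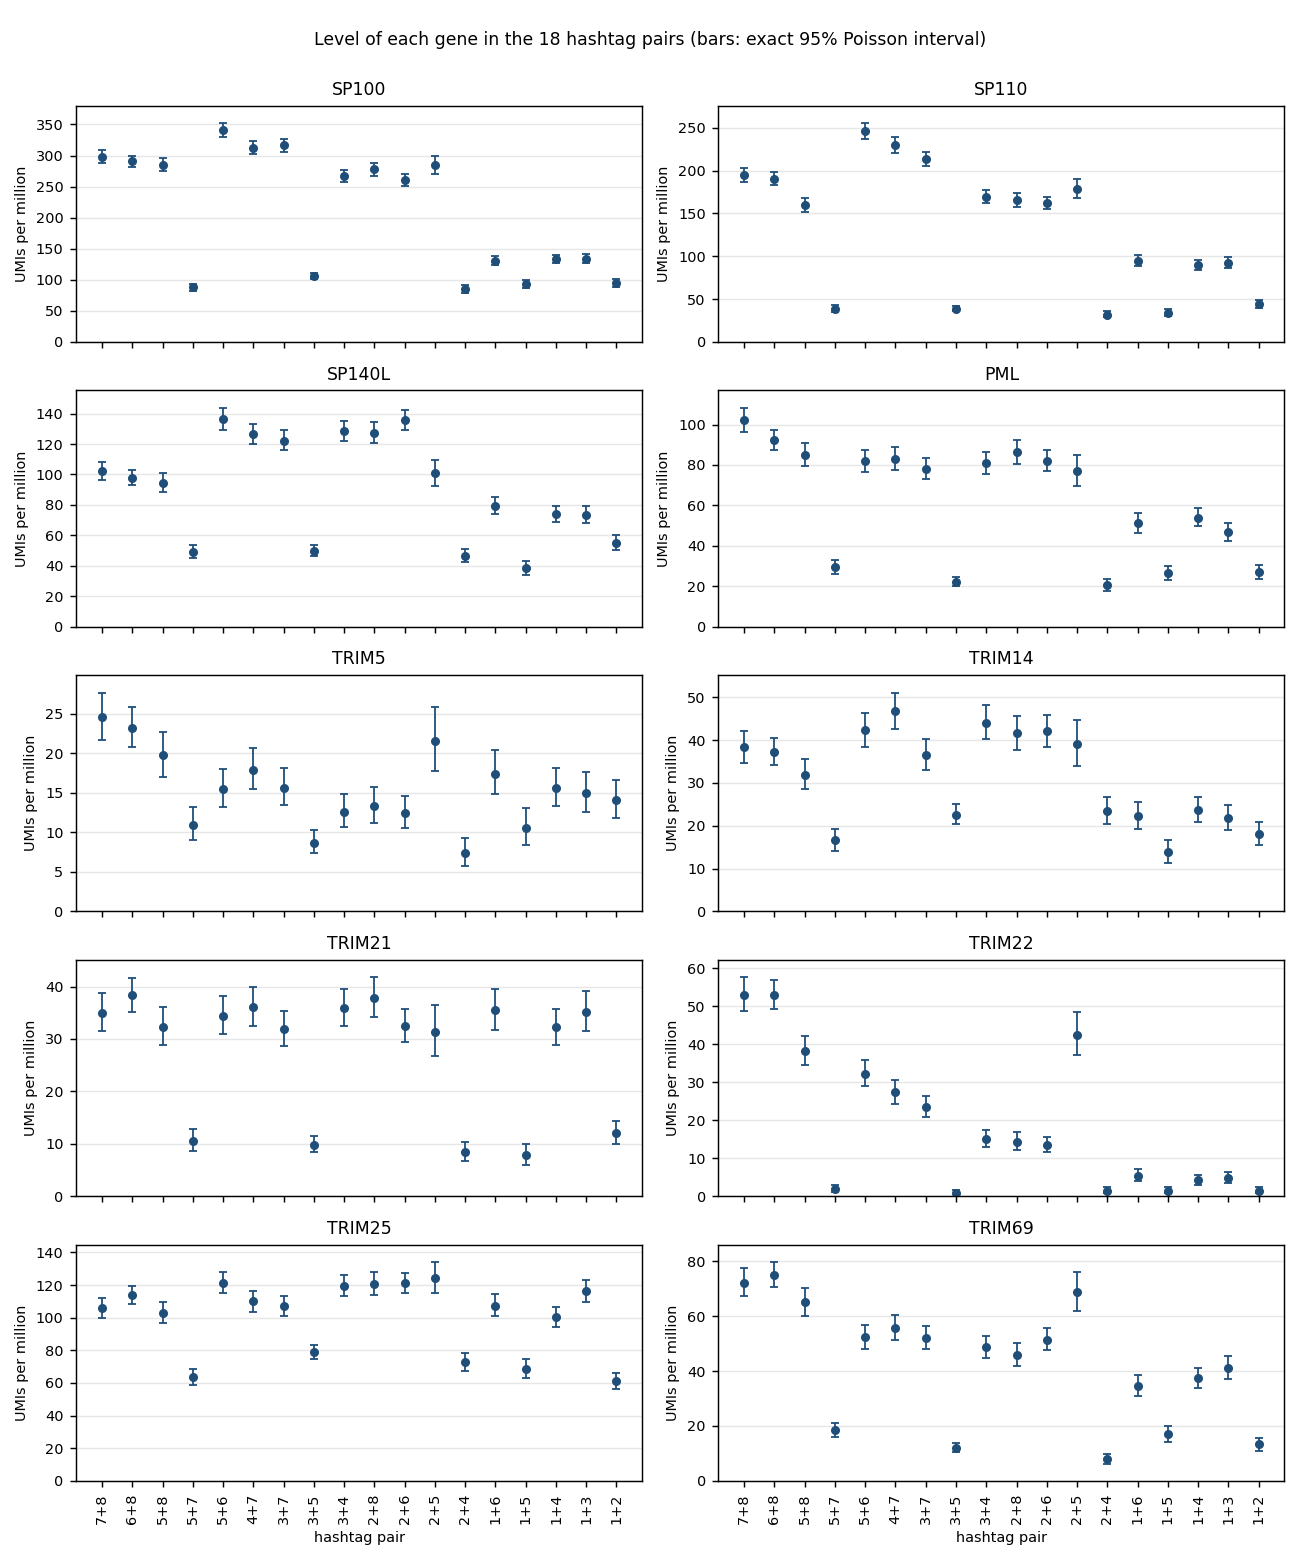
Level of each gene (vertical axis, UMIs per 1000000 UMIs of the pair) in the 18 hashtag pairs (horizontal axis); points are values of the pooled cells of a pair and bars are exact 95% Poisson intervals. Pairs 5+7, 3+5, 2+4, 1+5 and 1+2 were the lowest 5 for all genes but TRIM5 and TRIM14, and TRIM22 stayed at or below 5.32 CPM in 8 pairs.

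**Figure D2:**
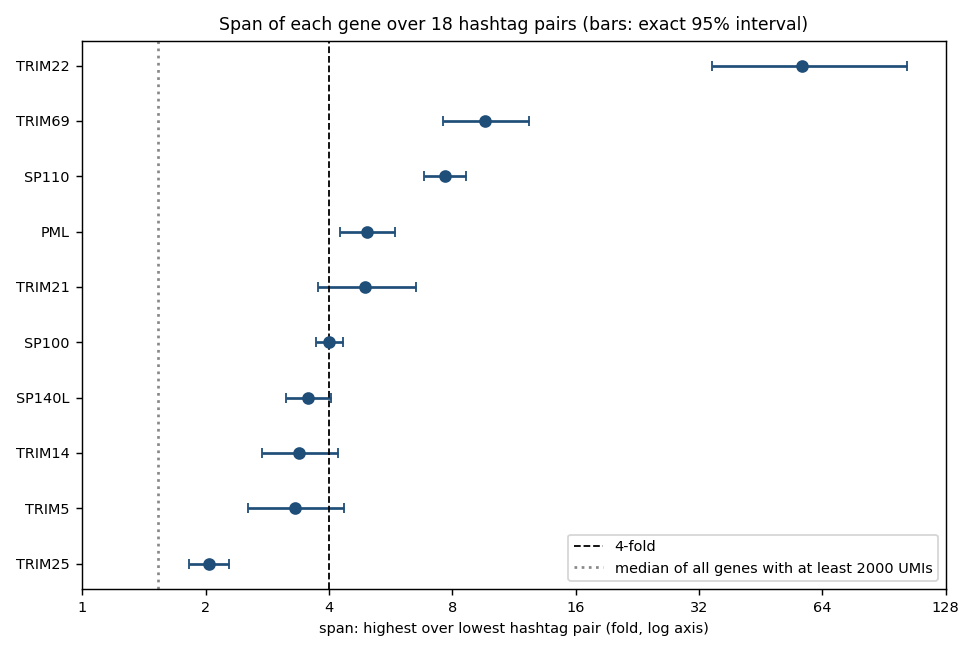
Span of each gene over the 18 pairs (horizontal axis, fold, log scale) with its exact 95% interval; the dashed line marks 4-fold and the dotted line the median of the 7566 genes with at least 2000 UMIs. TRIM22 lies farthest to the right at 57.2-fold and TRIM25 nearest to the dotted line at 2.04-fold.

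PML, the scaffold of the nuclear bodies, had 102 CPM in its highest pair, 7+8, a median of 77.4 CPM over the pairs, and 20.6 CPM in its lowest pair, 2+4. That is a 4.96-fold span (4.26 to 5.79). In 10 pairs PML was at or above 77.0 CPM, pairs 1+3, 1+4 and 1+6 lay between 46.8 and 54.0 CPM, and pairs 5+7, 3+5, 2+4, 1+5 and 1+2 between 20.6 and 29.3 CPM. PML is on chr15:73994673-74047812, plus strand (GRCh38, GENCODE v29).

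SP100, the partner that PML bodies carry from the start and that restricts incoming viral DNA, had 341 CPM in pair 5+6, a median of 264 CPM, and 85.0 CPM in pair 2+4. Its levels left a gap: 10 pairs held 260 to 341 CPM and 8 held 85.0 to 134 CPM, with a 1.95-fold step (1.83 to 2.08) between pairs 2+6 and 1+3. Pairs 1+3, 1+4 and 1+6, at 131 to 134 CPM, were thus below this step for SP100, and the other low pairs held at most 106 CPM. SP110, a family member whose loss in people causes an immunodeficiency with liver disease, spanned more, at 7.68-fold (6.82 to 8.66), with 246 CPM in pair 5+6, a median of 161 CPM and 31.98 CPM in pair 2+4. Its widest step lay elsewhere, 2.04-fold (1.82 to 2.29) between pairs 1+4 and 1+2, so that pairs 1+3, 1+4 and 1+6 were above it. At 90.05 to 94.8 CPM they lay below the other high pairs, which held at least 159.8 CPM. These pairs were thus intermediate for both genes.

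SP140L, a close relative of the chromatin reader SP140, had 136 CPM in pair 5+6, a median of 96.3 CPM and 38.4 CPM in pair 1+5. SP100, SP110 and SP140L all had their highest level in pair 5+6. For SP140L this was not resolved from pair 2+6, at 136.5 CPM (129.5 to 143.7) in 5+6 and 135.7 CPM (129.3 to 142.4) in 2+6. SP100 and SP110 were lower in 2+6, at 260 and 162 CPM. SP140 itself differed less, by 2.26-fold, and was at 17.2 CPM in its highest pair, 2+5, and 7.62 CPM in its lowest, 2+8. SP100, SP110 and SP140L lie at chr2:230415942-230544090 (plus strand), chr2:230167293-230225729 (minus) and chr2:230327184-230403732 (plus). SP110 overlaps SP140 on the other strand, and 9.90% of the 54-base words in the last 500 transcript bases of SP140L also occur in other genes, SP140 among them, so the counts of these genes may share reads.

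TRIM22, a ubiquitin ligase of the nucleus that blocks transcription of HIV, had the widest span of the 10 genes, 57.2-fold (34.4 to 103). It had 53.0, 52.9 and 38.1 CPM in pairs 7+8, 6+8 and 5+8, and 42.5 CPM in pair 2+5. Pairs 5+6, 4+7 and 3+7 held 32.2, 27.3 and 23.5 CPM, and pairs 3+4, 2+8 and 2+6 held 14.97, 14.3 and 13.5 CPM. Next came pairs 1+6, 1+3 and 1+4 at 5.32, 4.74 and 4.14 CPM, and last pairs 5+7, 1+2, 2+4, 1+5 and 3+5, between 0.927 and 1.97 CPM. The intervals of pairs 5+8 and 5+6 overlap, so the order between these sets is gradual at the top. The widest step was 2.53-fold (1.83 to 3.57), between pairs 2+6 and 1+6, and the lowest pair rested on 15 UMIs. With the second highest pair over the second lowest, the span was 37.6-fold, and with each cell reduced at random to 10000 UMIs it was 90.9-fold. After that reduction only 3 cells of the lowest pair, 3+5, held a TRIM22 UMI. TRIM22 is on chr11:5689689-5737089 (plus strand), inside the annotated bounds of TRIM5 on the other strand, and 27.0% of the 54-base words of its last 500 transcript bases occur in other genes.

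TRIM21, the cytoplasmic antibody receptor that sends antibody-bound viruses for degradation, showed a different shape, close to a switch. In 13 pairs it held 31.3 to 38.3 CPM, and in pairs 5+7, 3+5, 2+4, 1+5 and 1+2 it held 7.81 to 12.0 CPM, with a 2.61-fold step (2.05 to 3.34) between. The 13 pairs differed among themselves by no more than 1.22-fold. None of the steps between neighbours within them had an interval clear of 1, but neighbours in rank are the closest values by construction. Pairs 1+3, 1+4 and 1+6, which were low for TRIM22, were as high as the rest for TRIM21, at 35.1, 32.2 and 35.5 CPM. Its span was 4.91-fold (3.76 to 6.51), and 8.37-fold with each cell reduced to 10000 UMIs. After that reduction only 12 cells of its lowest pair, 1+5, held a TRIM21 UMI. The gene is on chr11:4384897-4393696, minus strand.

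TRIM25, the ligase that activates the RNA sensor RIG-I, had the same split of pairs into 13 high and 5 low on a smaller scale, but not the same order among them. It held 100 to 124 CPM in 13 pairs and 60.9 to 79.1 CPM in the same 5 low pairs, with a 1.27-fold step (1.17 to 1.37) between. Its 2.04-fold span (1.82 to 2.28) was wider than that of 83.5% of the genes with at least 2000 UMIs. TRIM25 is on chr17:56836387-56914080, minus strand.

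TRIM69, which hinders several RNA viruses at the microtubules, had 75.1 CPM in pair 6+8, a median of 47.2 CPM and 7.82 CPM in pair 2+4. It spanned 9.60-fold (7.61 to 12.3), or 5.96-fold with the second highest pair over the second lowest. Pairs 7+8, 6+8, 5+8 and 2+5 held 65.04 to 75.1 CPM, and no other pair exceeded 55.8 CPM. TRIM14, an adaptor of antiviral signalling at mitochondria, had 46.7 CPM in pair 4+7, a median of 34.3 CPM and 13.8 CPM in pair 1+5, a 3.38-fold span (2.74 to 4.21). Of TRIM14, pairs 1+3, 1+4 and 1+6 held 21.7, 23.7 and 22.3 CPM, close to pairs 2+4 and 3+5 at 23.4 and 22.6 CPM. TRIM69 and TRIM14 are on chr15:44728988-44767829 (plus strand) and chr9:98069275-98119212 (minus).

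TRIM5, which binds the capsids of incoming retroviruses, had 24.5 CPM in pair 7+8, a median of 15.2 CPM and 7.40 CPM in pair 2+4, a 3.31-fold span (2.54 to 4.36). None of the 17 steps between neighbours in its order of pairs had an interval clear of 1, and the widest was 1.20-fold (0.906 to 1.59). With 72 to 333 UMIs per pair these intervals are wide, and neighbours in rank differ least. Whether its order is gradual or stepped therefore cannot be told. Pairs 1+3, 1+4 and 1+6, at 14.9, 15.6 and 17.4 CPM, were above pairs 3+4, 2+8 and 2+6, at 12.6, 13.3 and 12.4 CPM. TRIM5 is on chr11:5663557-5938619, minus strand, in bounds that also hold TRIM22 and several olfactory receptor genes, and 9.18% of its 54-base end words occur in other genes.

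Pairs that share a hashtag were set against each other in 5 comparisons, chosen with earlier results of these data known. In each of them all 10 genes were higher in the first-named pair, and 4 to 9 of them were at least 2-fold higher. The median fold over all genes with at least 2000 UMIs was 0.943 to 1.00 in these comparisons. The share of those genes that were higher by any amount was not counted. Between 1+6 and 1+2, 4 of 10 genes were at least 2-fold higher in 1+6, beside 0.925% of all genes with at least 2000 UMIs. Between 3+4 and 2+4 it was 7 of 10, beside 2.45%, and between 5+6 and 3+5 also 7 of 10, beside 2.91%. Between 7+8 and 5+7 it was 9 of 10, beside 3.29%, and between 2+5 and 1+5 also 9 of 10, beside 2.97%. TRIM25 stayed below 2-fold in all 5 comparisons, at 1.53-fold to 1.81-fold. None of the 10 genes was 2-fold lower in any of them, beside 0, 0.159%, 0.397%, 0.740% and 0.859% of all genes in the same order of comparisons, shares too low for a count of 10 genes to differ from.

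The genes took different courses through these comparisons. TRIM22 was 3.65-fold (1.98 to 7.16) higher in 1+6 than in 1+2, 10.4-fold (6.03 to 19.4) in 3+4 than in 2+4, and 34.8-fold (20.8 to 62.8) in 5+6 than in 3+5. The fold was 27.0 (17.3 to 44.5) for 7+8 over 5+7 and 30.2 (16.5 to 61.3) for 2+5 over 1+5. The intervals of the last 3 overlap one another. TRIM21 was already 2.96-fold (2.38 to 3.70) higher in 1+6 than in 1+2, and 3.32-fold to 4.30-fold in the other comparisons. SP100 was 1.39-fold (1.27 to 1.52) higher in 1+6 than in 1+2 and 3.05-fold to 3.39-fold in the others. TRIM5 was 1.24-fold (0.977 to 1.57) higher in 1+6 than in 1+2, an interval that includes 1, and 2.25-fold (1.79 to 2.83) higher in 7+8 than in 5+7.

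**Figure D3:**
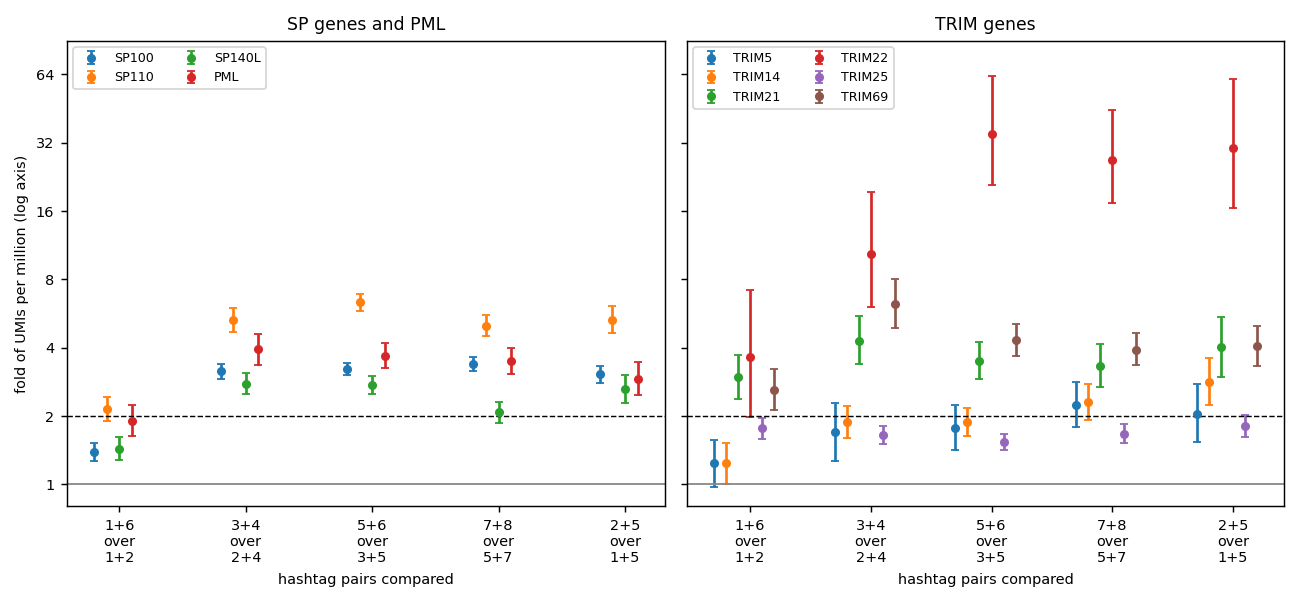
Fold of the level in the first-named pair over the second-named pair (vertical axis, log scale) for the 5 comparisons of pairs that share a hashtag (horizontal axis), for the SP genes and PML on the left and the TRIM genes on the right; bars are exact 95% intervals and the dashed line marks 2-fold. TRIM22 reaches 34.8-fold while TRIM25 stays between 1.53-fold and 1.81-fold.

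Pairs with high levels also differed from each other, and the genes then differed in direction. These further comparisons were chosen after the levels had been seen. Between 7+8 and 5+6, SP100, SP110, SP140L and TRIM25 were lower in 7+8, at 0.875-fold (0.834 to 0.918), 0.793-fold (0.749 to 0.841), 0.749-fold (0.692 to 0.811) and 0.872-fold (0.804 to 0.945). PML, TRIM5, TRIM22 and TRIM69 were higher in 7+8, at 1.24-fold (1.14 to 1.36), 1.58-fold (1.30 to 1.93), 1.65-fold (1.44 to 1.89) and 1.38-fold (1.24 to 1.54). The intervals of TRIM14 and TRIM21 included 1, at 0.905-fold (0.790 to 1.04) and 1.02-fold (0.878 to 1.18). The median over all genes with at least 2000 UMIs was 0.996-fold.

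Pair 3+4 over pair 1+6 separated the genes in another way. SP100 was 2.04-fold (1.91 to 2.18), TRIM14 1.98-fold (1.68 to 2.34) and TRIM22 2.81-fold (2.03 to 3.96) higher in 3+4. SP110, SP140L, PML and TRIM69 were also higher, at 1.79-fold, 1.62-fold, 1.58-fold and 1.41-fold, with intervals above 1. TRIM25 was at 1.11-fold (1.02 to 1.21), beside a median of 0.985-fold over all genes with at least 2000 UMIs. TRIM21 was at 1.01-fold (0.870 to 1.17), which leaves room for a difference of up to 1.17-fold, and TRIM5 was lower in 3+4, at 0.723-fold (0.572 to 0.913). Pair 5+6 over pair 3+4 showed higher levels of SP100, SP110 and TRIM22, at 1.27-fold, 1.45-fold (1.37 to 1.54) and 2.15-fold (1.79 to 2.60), and intervals that included 1 for the other 7 genes. The low pairs were not alike either. In 2+4 over 1+2, TRIM5 was at 0.526-fold (0.390 to 0.705) and TRIM69 at 0.590-fold (0.438 to 0.790). SP100, SP110, SP140L, PML and TRIM21 were also lower in 2+4, at 0.901-fold, 0.723-fold, 0.839-fold, 0.767-fold and 0.695-fold, with intervals below 1. TRIM14 was higher, at 1.30-fold (1.06 to 1.59), as was TRIM25, at 1.19-fold (1.07 to 1.33). The interval of TRIM22 included 1 (0.436 to 2.23).

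Across the 18 pairs, the genes most like the members in level included well-known interferon-induced genes. Likeness was the Pearson correlation of log2(CPM + 1) over pairs that share 1 library and 1 capture, and is a description. TRIM22 was most like OAS2, an antiviral RNA sensor (r = 0.994), IFI30 and SNX6. TRIM21 was most like TRIM56 (r = 0.988), HELZ2 and IRF1, the early interferon-responsive activator (r = 0.987). By Spearman's rho, which uses only the order of the pairs, TRIM21 was less like HELZ2 (0.721) and IRF1 (0.779). IRF1 held 808 to 1357 CPM in the 13 pairs where TRIM21 was high and 43.7 to 70.8 CPM in the 5 where it was low.

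SP100 was most like BAK1 (r = 0.993), a pore-forming death protein, SP110 like the peptide transporter TAP1 (r = 0.989), SP140L like PCYT1A (r = 0.986), and PML like the repressor ETV7 (r = 0.992). TRIM69 was most like IFIT3 (r = 0.9898), TRIM14 like TNFRSF1B (r = 0.970), TRIM25 like IRF8 (r = 0.961) and TRIM5 like the death ligand TNFSF10 (r = 0.957). An r of at least 0.9 was reached by 2.92% of all genes with at least 2000 UMIs for TRIM22, 2.62% for SP100 and 0.225% for TRIM5. Among the members, the highest r was that of SP110 and PML (0.974) and the lowest that of TRIM5 and TRIM14 (0.481). By Spearman's rho the most alike members were TRIM22 and TRIM69 (0.973) and the least alike TRIM5 and TRIM25 (0.350), with SP110 and PML at 0.798. The gene most like each member changed for all 10 with rho, to ISG20 for TRIM22 (0.996), PPA1 for SP100 (0.979), MTHFD2 for TRIM25 (0.903) and TRAFD1 for TRIM21 (0.841), whose rho with TRIM56 was 0.775.

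Relatives and partners of these genes were read against the 3.45% of all genes that spanned 4-fold. Of 66 other TRIM genes in the table, 18 had at least 2000 UMIs. A 4-fold span was reached by 2 of these 18, whose median was 1.70-fold. TRIM38 did so with 52.6 CPM in pair 7+8 and 11.6 CPM in pair 2+4 (4.52-fold). TRIM16L did so the other way round, with 58.5 CPM in pair 2+4 and 13.4 CPM in pair 7+8 (4.36-fold), and its neighbour TRIM16 was also highest in 2+4, at 2.98-fold. TRIM28, the corepressor of retroelements, spanned 1.30-fold, TRIM44 1.49-fold, TRIM47 1.87-fold and TRIM56 2.50-fold.

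Of 31 PML body partners with at least 2000 UMIs, 1 spanned 4-fold: ISG20, an antiviral exonuclease, with 635 CPM in pair 7+8 and 65.9 CPM in pair 3+5 (9.63-fold). Both this share and the median of these partners, 1.53-fold, are near those of all genes, and the repair protein NBN and the histone chaperone HIRA spanned 1.99-fold and 1.90-fold. Of 29 substrates and partners of TRIM proteins, 1 spanned 4-fold, DDX58, which encodes RIG-I, at 7.92-fold. IRF7, the deubiquitinase CYLD and ISG15 spanned 3.50-fold, 3.42-fold and 3.22-fold. DDX58, IRF7 and ISG15 also stand in the antiviral list. For scale, 21 of 24 genes of a gamma response list and 17 of 26 of an antiviral list spanned 4-fold, against 0 of 23 S phase genes and 0 of 28 G2/M genes.

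Within pairs, the share of cells with a UMI broadly followed the levels, but the extremes did not always fall in the same pairs. SP100, for example, had its highest level in pair 5+6 and its lowest in pair 2+4. Each cell was reduced at random to 10000 UMIs for these shares, which left out 158 cells, 5 to 19 per pair. SP100 was detected in 97.4% (93.6 to 99.3%) of the cells of pair 2+5 and 53.1% (47.5 to 58.6%) of those of pair 5+7, and in 97.0% and 84.7% without the reduction. TRIM22 was detected in 41.2% (35.9 to 46.6%) of the cells of pair 7+8 and 0.625% (0.129 to 1.82%) of those of pair 3+5, and in 71.1% and 2.84% without it. TRIM69 was detected in 51.9% (43.79 to 59.98%) of the cells of pair 2+5 and 7.94% (5.20 to 11.49%) of those of pair 2+4, and in 85.5% and 19.4% without it.

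TRIM21 was detected in 32.7% (27.6 to 38.1%) of the cells of pair 2+8 and 5.04% (2.63 to 8.64%) of those of pair 1+5, and in 63.9% and 20.2% without the reduction. In their highest pair, 6 of the 10 genes were seen in at least 50% of cells, beside 34.8% of all genes with at least 2000 UMIs, a share that depends on how abundant a gene is. Median depth was 27824.5 UMIs per cell in the shallowest pair and 32945 in the deepest. No cell type in the pool should lack these genes, so the share given by free RNA was not measured. Fewer cells with a transcript and less RNA per cell cannot be told apart for the rare transcripts.

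**Figure D4:**
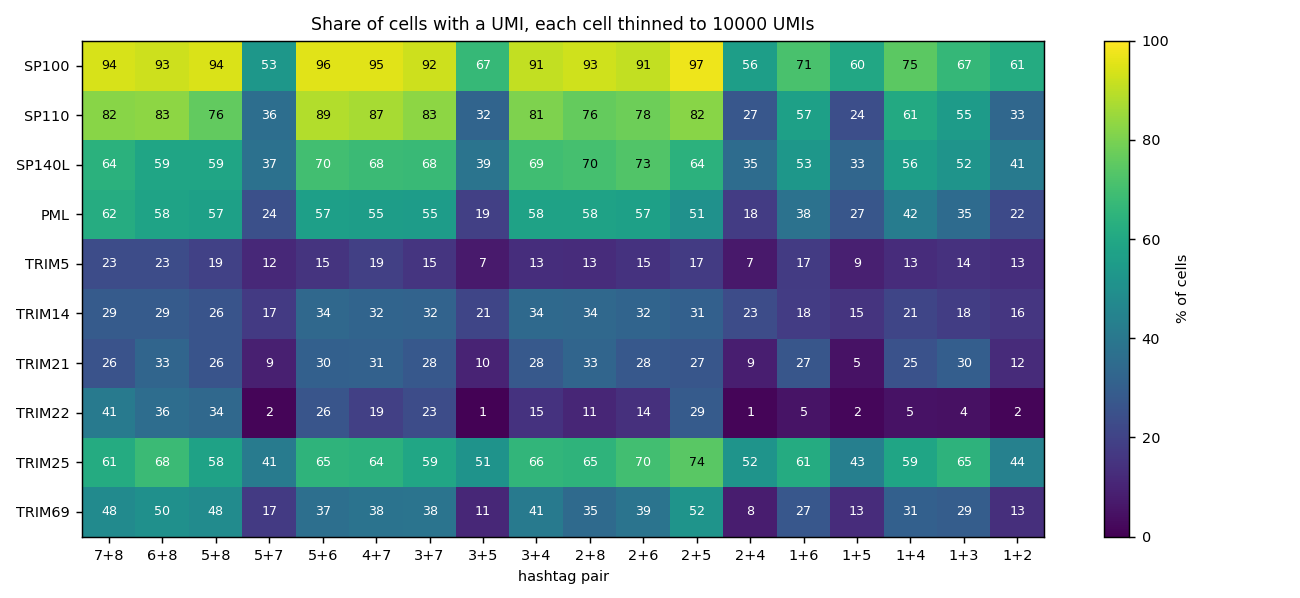
Percent of cells with at least 1 UMI of each gene (vertical axis) in each hashtag pair (horizontal axis), after each cell was reduced at random to 10000 UMIs; color and printed number give the percent. SP100 reaches 97.4% in pair 2+5, and TRIM22 ranges from 41.2% in pair 7+8 to 0.625% in pair 3+5.

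The spread of UMIs between cells of a pair was near that of random counting for 9 of the 10 genes. The variance of UMIs per cell over their mean, which is 1 for random counting, had a median over pairs of 1.01 for TRIM5 to 1.11 for SP100, beside a median of 1.05 over all genes with at least 2000 UMIs. SP110 stood higher, at 1.29, inside the range of 0.987 to 1.56 that held the middle 90% of those genes. For the 5783 genes within the UMI range of the members, the middle 90% lay between 0.989 and 1.32. SP110 was thus near the upper end of that narrower range. In single pairs the ratio ran from 0.884 for SP140L to 1.48 for TRIM22. The reduction and few UMIs per cell pull the ratio toward 1, so a value near 1 does not show that cells were alike. Correlations between members across cells were weak, and the largest median over pairs was 0.0936 for SP100 with SP110.

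Cells with much antiviral RNA also held more of some of these genes, although correlations across cells were weak. The summed UMIs of 27 antiviral genes, which include none of the 10, had a median Spearman rho over the 18 pairs of 0.150 with TRIM22, 0.145 with PML and 0.130 with SP100, over 5956 cells. In the 10% of cells with the highest antiviral total, PML was a median of 1.55-fold higher than in the other cells of the same pair, with 12 of 18 intervals above 1. In pair 5+8 PML held 178 CPM in these cells and 83.2 CPM in the others, and in pair 3+7 it held 69.7 and 83.7 CPM. SP100 was a median of 1.29-fold higher, with 9 of 18 intervals above 1.

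TRIM22 varied most from pair to pair in this respect, with a median of 2.27-fold, 16 of 18 pairs and 8 of 18 intervals above 1, and 0 UMIs in the top cells of pair 1+3. In pair 2+8 it held 75.0 CPM in the top 10% and 8.22 CPM in the other cells, a 9.13-fold difference (4.96 to 16.8), with 24 UMIs on each side. In pair 6+8 it held 102 and 44.7 CPM (2.28-fold, 1.62 to 3.16), and in pair 7+8, where its overall level was highest, 61.8 and 56.3 CPM (1.10-fold, 0.663 to 1.73). With the total of the gamma response list, TRIM22 was above 1 in all 18 pairs and 8 intervals, by a median of 3.64-fold with counts under 3 in the other cells set to 3, and by 1.36-fold (0.716 to 2.40) in the lowest pair, 5+6. Over all pairs it had 249 UMIs in the top cells and 874 in the others. In pairs 1+2, 1+5, 2+4, 3+5 and 5+7 only 3 to 5 cells held a TRIM22 UMI, so single UMIs set the folds there and weigh on the median. With the antiviral total, TRIM25 had 6 and SP140L 2 of 18 intervals above 1.

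All members were also set against the cell cycle, and TRIM69 was higher in cells with much G2/M RNA. In the 10% of cells with the highest total of 28 G2/M genes, it was higher than in the other cells in 17 of 18 pairs, by a median of 1.39-fold, with 7 intervals above 1 and none below. In pair 6+8 it held 111 CPM in these cells and 67.2 CPM in the others (1.65-fold, 1.20 to 2.23). In pair 5+8, the exception, it held 59.4 and 68.5 CPM. Its median rho with the G2/M total was 0.0697. The difference between TRIM69 and the other members in this measure was not tested. Of the other 9 genes, TRIM25 had 3 intervals above 1 and no gene had more. TRIM22 was higher in the top 10% in 3 of 18 pairs, with a median rho of -0.0725. It had 93 UMIs in the top cells of all pairs and 1030 in the others, and none of its intervals was clear of 1. In pairs with few TRIM22 UMIs, 10% of the cells can hold none, so the count of pairs does not settle a direction. With the S phase total, PML and TRIM21 were lower in the top 10% in 15 of 18 pairs and TRIM69 in 14, by medians of 0.854-fold, 0.749-fold and 0.820-fold. Intervals below 1 were few, 2 each for SP100, SP110, PML and TRIM69 and 1 each for TRIM14 and TRIM21.

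**Figure D5:**
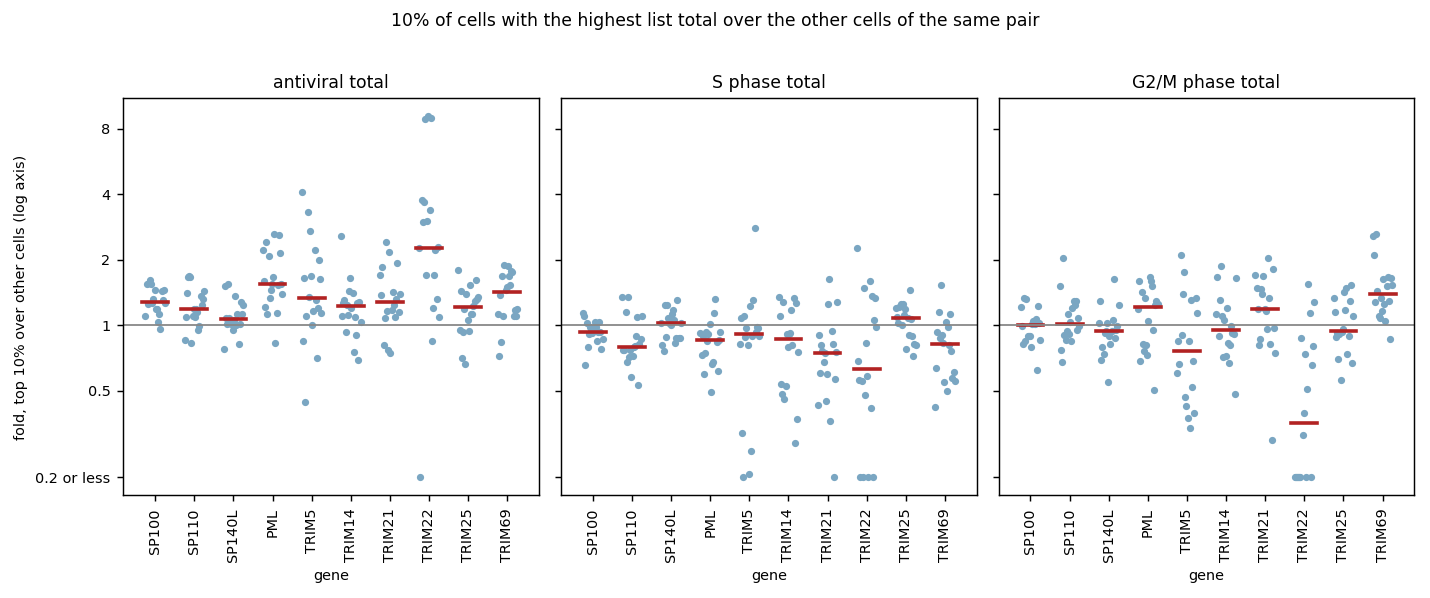
Fold of each gene (vertical axis, log scale) in the 10% of cells with the highest antiviral, S phase or G2/M total over the other cells of the same pair; each point is 1 of the 18 pairs, the red bar is their median, a count of 0 in the other cells was set to 3 UMIs, and folds under 0.2 are drawn at 0.2. PML has a median of 1.55-fold for the antiviral total, and TRIM69 lies above 1 in 17 of 18 pairs for the G2/M total.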

How the data were processed

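The deposited table holds raw UMI counts per gene and barcode of 1 gene expression library, with counts of 8 hashtags. Per the file headers the authors wrote it with Cell Ranger 5.0.1. The submitters' processing notes list GRCh38 and another version, Cell Ranger 2.1.1, and which one made the counts is not known. Of 7804 barcodes, none repeated, a cell had to show 500 genes or more and no more than 20% mitochondrial UMIs. A pair was read where the second hashtag held at least 5 times the third plus 1, and this rule also stood in for a doublet caller. Pairs with fewer than 100 cells were left out. Doublets within a pair cannot be seen.

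UMIs were summed per pair and scaled to CPM. Levels have exact Poisson intervals, ratios exact conditional intervals and shares Clopper-Pearson intervals, all at 95% and for counting error only; a lowest count was set to at least 3. Pairs are parts of 1 sample, so no test was run. The members are the named genes, with the 3 genes most like each by Pearson r (Spearman's rho as the alternative) and, of each list, the 4 with the widest span; of the other TRIM genes the 4 highest in CPM were added, and IRF1 served as a known example. Members, lists and comparisons were chosen with earlier results of these data known. Python 3.11.15, numpy 2.4.6, scipy 1.17.1, pandas 2.3.3, Biopython 1.88, R 4.3.3 and edgeR 4.0.16 (TMM factors only) were used, and the calculations were tested on simulated data. Gene positions come from GENCODE v29 and promoter sequences from RefSeq. Whether counting used the strand is not stated. The gamma response list holds 1 gene that is counted but not reported here.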

Additional observations from a re-analysis of the deposited data

Results flagged for a closer look

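Barcodes outside the 18 pairs also held these transcripts. Per 1000000 non-mitochondrial UMIs, the 10 genes summed to 896 (1498 UMIs) in 603 barcodes below the quality limits. They summed to 752 (35803 UMIs) in the 1087 cells within the limits but outside the 18 pairs, beside 828 in the paired cells. Both lie above the level of 3 UMIs, which is 1.79 and 0.0630 on the same scale. The median barcode held 5200 UMIs among those below the limits and 51617 UMIs among the cells outside the 18 pairs.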

How the results depend on the processing

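The number of genes spanning at least 4-fold was 5 or 6 under all alternatives tried: 5 without a cell filter, with limits of 1000 genes and 15% mitochondrial UMIs, and with the second highest over the second lowest pair. Of 90 spans recomputed for single genes, 83 stayed within the counting interval. With TMM factors 8 genes, not 7, were at least 2-fold higher in 5+6 than in 3+5, and the other counts of these comparisons did not change. Leaving out mitochondrial UMIs shifted the median of all genes by 0.17 (log2). With genes of at least 100 UMIs as background, 14.5% spanned 4-fold. Without reducing cells to 10000 UMIs, all 10 genes, not 6, were seen in at least 50% of cells of their highest pair. The number with a median rho of at least 0.1 with the antiviral total was then 10, not 3. Unequal depth of cells then enters both counts. The share of all genes without the reduction was not counted for either, and for the rho not with it. No paired analysis was possible because no label ties a hashtag to a condition or a replicate. The 2000 UMIs required of a gene, and the 11 to 20 UMIs of TRIM22 in its lowest pairs, limit what small differences can be seen.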
